A study of Homo sapiens with 24 samples.

Results

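The nuclear-encoded genes of the mitochondrial respiratory chain were followed across 8 groups of SH-SY5Y, a human neuroblastoma cell line. They were taken from the counts table by symbol: NDUFA, NDUFB, NDUFC, NDUFS or NDUFV with a number for complex I, SDHA to SDHD for complex II, UQCR for complex III, COX4 to COX8 with an A, B, C or I for complex IV, and ATP5 for complex V. The rule found 93 of 26485 rows, of which 42 belong to complex I, 4 to complex II, 10 to complex III, 17 to complex IV and 20 to complex V. Complexes are assigned by symbol, so NDUFA4, which is known as a complex IV subunit, is counted with complex I. Subunits make up 83 of the 93 rows. The other 10 are 3 antisense genes, 2 readthrough genes, 2 pseudogenes and 3 genes whose products are not subunits by name (ATP5S, ATP5SL and COX7A2L). Assembly factors and the mitochondrially encoded subunits are outside the rule. So are subunits whose symbols it does not match, such as NDUFAB1 and CYC1 (cytochrome c1 of complex III), which the sums and medians below leave out.

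The groups were cells harvested after 4 h with copper chloride, untreated cells at 4 h, and cells harvested after 24 h with the polyamine TEPA, with dextran-catechin (DC), with interferon gamma (IFN), with TEPA and IFN, with DC and IFN, or without treatment. TEPA and DC are copper chelators, and the series set out to study copper regulation in neuroblastoma cells. Each group has 3 libraries, all from the 1 cell line. Doses are not in the labels, and nothing there says whether the libraries of a group came from separate cultures, so p-values measure only the spread between these libraries, which may be technical. Library totals ran from 24569980 to 35372442 counts. Summed markers of adrenergic neuroblastoma were at 1490 to 1980 CPM (counts per 1000000 of the TMM-scaled library total) in every library, against at most 0.601 CPM for endothelial and at most 0.898 CPM for epithelial markers. Schwann cell markers summed to 3.44 to 5.4 CPM and a fibroblast list to 456 to 713 CPM.

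The respiratory chain passes electrons from NADH (complex I) and succinate (complex II) through ubiquinone to complex III, then through cytochrome c to complex IV, which reduces oxygen. Complexes I, III and IV pump protons as they do so, and complex V, the ATP synthase, uses the gradient to make ATP. Complex IV holds copper at its catalytic centres, in subunits that the mitochondrial genome encodes, so that copper supply to mitochondria and the assembly of this complex are linked. Interferon gamma changes many genes of antigen presentation and defence.

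Sums were taken over the 83 subunit rows, in total and by complex, unless other rows are named. The summed level of these mRNAs lay between 6906 and 7464 CPM in the means of the 8 groups. Together the subunit rows took 6974 ± 146 CPM with copper, against 7464 ± 109 CPM in the 4 h control (SD, n = 3 each here and below). The sum was 7144 ± 61.9 CPM with TEPA, 7061 ± 48.6 CPM with DC, 6906 ± 196 CPM with IFN, 7157 ± 69.5 CPM with TEPA and IFN and 7104 ± 94.5 CPM with DC and IFN, against 7072 ± 253 CPM in the 24 h control. Copper was the only treatment whose 3 libraries (6863 to 7139 CPM) lay wholly below those of its control (7340 to 7544 CPM). In the other groups the sums overlapped those of the 24 h control (6792 to 7283 CPM). Set against IFN (6684 to 7052 CPM), TEPA with IFN (7100 to 7234 CPM) lay wholly above, while DC with IFN (7043 to 7213 CPM) overlapped.

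By complex, the copper sums lay below the 4 h control libraries without overlap in complexes I and III. Complex I summed to 2124 ± 36.2 CPM with copper, against 2241 ± 39.3 CPM in the 4 h control, and complex III to 769.1 ± 29.2 CPM against 856.7 ± 31.0 CPM. Without NDUFA4, but with its antisense and readthrough rows included, complex I summed to 1917 ± 30.9 CPM with copper. The 4 h control was at 2015 ± 39.2 CPM on the same rows, still without overlap. The sums overlapped in complex II (333.0 ± 21.4 CPM with copper, 363.3 ± 21.7 CPM in the 4 h control), complex IV (884.1 ± 78.3 and 950.3 ± 117 CPM) and complex V (2863 ± 132 and 3052 ± 80.6 CPM). With IFN, complex III summed to 773.7 ± 25.4 CPM, against 839.5 ± 20.6 CPM in the 24 h control, and again the libraries did not overlap. The TEPA and DC sums overlapped those of the 24 h control in all 5 complexes. TEPA with IFN lay wholly above the 24 h control in complex II and in complex IV (916.3 to 952.3 against 761.0 to 863.1 CPM). It lay wholly below in complex III. Set against IFN, it lay wholly above in complexes II and V, and DC with IFN did so in complex V. The remaining sums of these combinations overlapped. Differences between sums were not tested. These sums follow their most abundant rows, ATP5B (827 CPM over all libraries) and ATP5A1 (660 CPM) for complex V, which encode the beta and alpha subunits of the catalytic head.

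**Figure D1:**
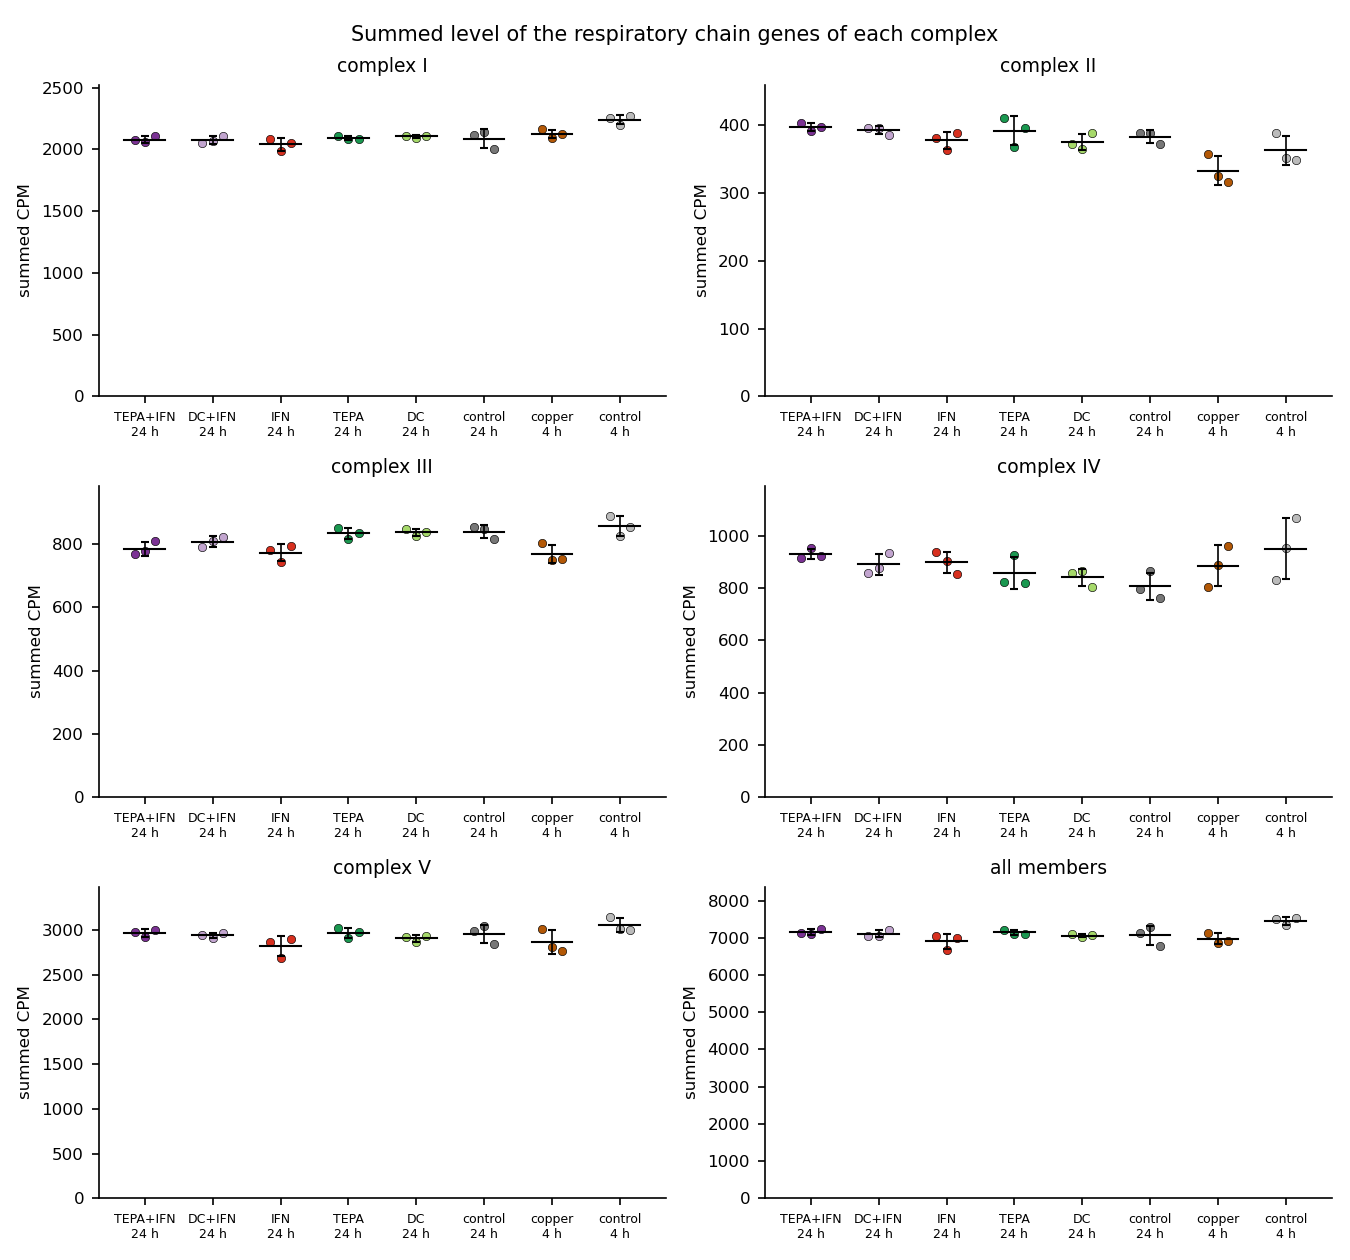
Summed CPM of the subunit rows of each complex, and of all subunit rows in the panel titled all members. Each of the 24 libraries is a point, with the mean (line) and SD (bars) of the 3 libraries of a group. The groups run from TEPA with IFN at the left to the 4 h control at the right; the copper libraries lie below the 4 h control libraries in complex I, complex III and the total.

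Of the 93 rows, 83 had enough counts to be tested, 40 of complex I, 4 of complex II, 9 of complex III, 12 of complex IV and 18 of complex V. The 10 that did not pass were NDUFA4L2, NDUFV2-AS1, UQCRBP1, COX6A2, COX6B2, COX7A1, COX7B2, COX8C, ATP5L2 and ATP5EP2. Most are subunits that stand in for a housekeeping partner in other tissues. COX6A2 and COX7B2 had 0 counts in all 24 libraries, while COX6A1, the widely expressed partner of COX6A2, was at 102 to 149 CPM. COX7A1, the heart and muscle form, had 4 counts in 3 of 24 libraries, against 111 to 158 CPM for COX7A2. COX4I2, the form known from lung and from hypoxic cells, did pass the filter but reached only 0.589 CPM. Its partner COX4I1 averaged 95.4 CPM. NDUFA4L2, a paralog of NDUFA4 that hypoxia induces, had 34 counts in 15 libraries, whereas NDUFA4 was at 174 to 244 CPM. Of the 3 genes for the c subunit of the ATP synthase ring, which encode the same mature protein, ATP5G1 averaged 64.3 CPM per kilobase of transcript, ATP5G2 128 and ATP5G3 130. These averages do not order ATP5G2 and ATP5G3, which ran from 40.7 to 187 and from 91.6 to 141 CPM over the libraries. UQCRHL is nearly identical to UQCRH, so its counts (12.7 to 18.3 CPM) are uncertain, as are those of the antisense rows, since the strand setting of the counting is not given in the sources used here.

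Subunits chosen from complexes I to IV, core and accessory, differed in how steady they were. COX6C, a small accessory subunit of complex IV, was at 79.2 to 90.5 CPM over the 24 libraries, and SDHD, the other membrane anchor of complex II, at 68.0 to 88.4 CPM. NDUFS1, which carries iron-sulfur clusters of complex I, was at 168 to 269 CPM. NDUFV1, which holds the flavin that accepts electrons from NADH, ran from 6.69 to 37.3 CPM, and UQCRC1, a core protein of complex III, from 23.2 to 99.7 CPM. With IFN, NDUFS1 was called in 2 of 13 alternative fits. In the fit with 1 mean per group, none of the 5 passed the test in any comparison. The largest fold changes among them were those of NDUFV1 and UQCRC1, at log2 values of 0.99 (SE 0.50, edgeR adjusted p = 0.147) and 0.93 (SE 0.47, edgeR adjusted p = 0.147) with IFN and -1.11 (SE 0.51) and -1.07 (SE 0.48) in the 24 h against the 4 h control. With IFN, COX5A, which binds near the matrix face of complex IV, had a log2 fold change of -0.30 (SE 0.13, edgeR adjusted p = 0.0963) and its IFN libraries lay below the 24 h control without overlap, though it did not pass.

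Copper asks which of these mRNAs respond to an excess of the metal within 4 h. In the fit with 1 mean per group, NDUFV3 and NDUFS5 of complex I fell and no member rose. NDUFV3, a small accessory subunit of the NADH-oxidising module, was at 12.2, 13.9 and 13.0 CPM with copper, against 14.2, 19.5 and 18.8 CPM in the 4 h control. Its log2 fold change was -0.42 (SE 0.11, edgeR adjusted p = 0.0244). NDUFS5, an accessory subunit of the membrane arm, was at 166, 167 and 158 CPM with copper, against 194, 205 and 192 CPM in the 4 h control. Its log2 fold change was -0.27 (SE 0.07, edgeR adjusted p = 0.0221). For both genes every copper library lay below every control library. NDUFV3 lies at chr21:42879644-42913304 and NDUFS5 at chr1:39026318-39034636 (GRCh38, GENCODE 29, both on the plus strand), and neither overlaps another annotated gene. The 2 calls of 83 (2.41%) stand beside 5.85% of all 14654 genes called in either direction and 3.2% called lower. The calls were not firm against single libraries. NDUFS5 lost its call without replicate 2 of the control or replicate 3 of copper (highest edgeR adjusted p 0.098), and NDUFV3 without replicates 2 or 3 of the control or 1 or 3 of copper (highest edgeR adjusted p 0.153). The count of called members was 0 without replicate 3 of copper (4.49% of all genes called), 9 or 10.8% without replicate 1 of copper (7.62% of all genes), 5 without replicate 1 of the control (7.44%) and 1 without replicate 2 of the control (4.99%).

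More members fell with copper once libraries of the same replicate number were compared with each other. Same-numbered copper and control libraries deviated together from their group means, with correlations of 0.866, 0.35 and 0.817 across genes. Replicate 2 of copper correlated better with a control library of another number, and the labels state no pairing. With the replicate number as a block, 14 members were lower and none higher, which is 16.9% of the 83 beside 9.38% of all genes called lower. They included 4 members of complex I, 1 of complex II, 3 of complex III, 4 of complex IV and 2 of complex V. When each library's trend with GC content was removed instead, 12 members (14.5%) were lower beside 10.8% of all genes, and with both steps 16 (19.3%) beside 14.1%. The members called in all 3 of these fits were NDUFV3, NDUFS5, NDUFB3, SDHC, UQCRC2, UQCRFS1, COX7A2, COX7B and ATP5G3, 9 in number. UQCRFS1, the Rieske iron-sulfur protein of complex III, had a log2 fold change of -0.32 with the block (SE 0.06, edgeR adjusted p = 0.00277). SDHC, a membrane anchor of complex II, was at 169, 143 and 135 CPM with copper, against 213, 174 and 159 CPM in the 4 h control. It was lower in each of the 3 pairs, although the groups overlapped, and its log2 fold change with the block was -0.28 (SE 0.06, edgeR adjusted p = 0.00233). COX7A2 was at 133, 114 and 111 CPM with copper and 158, 131 and 128 CPM in the 4 h control, again lower in each pair. ATP5G3 had a log2 fold change of -0.26 with the block (SE 0.07, edgeR adjusted p = 0.012). The median over the 83 members was -0.10 in the fit without the block, against -0.02 over all genes, and the complexes' medians lay between -0.12 (complex III) and -0.05 (complexes II and IV). The fold changes were negative for 59 members and positive for 24, beside 7921 negative and 6709 positive over all 14654 genes.

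The copper-handling and assembly genes that act on complex IV moved in both directions with copper. Of 22 assembly factors tested, 2 rose and 3 fell, beside the 5.85% of all genes called with copper; nothing particular to the list is read from this count. COX19, a small protein of the copper relay in the intermembrane space, was at 17.5, 19.1 and 20.4 CPM with copper, against 11.1, 11.8 and 13.2 CPM in the 4 h control, a log2 fold change of 0.66 (SE 0.12, edgeR adjusted p = 0.00132). COX10, which farnesylates haem for complex IV, rose by 0.31 on the log2 scale (SE 0.08, edgeR adjusted p = 0.0279). COX16, COA4 and PET100, which act in complex IV assembly, fell by 0.39, 0.33 and 0.41 on the same scale. COX17, the chaperone that hands copper on within the intermembrane space, was at 10.4, 10.5 and 12.2 CPM with copper and 10.9, 11.2 and 15.5 CPM in the 4 h control, and did not pass the test (edgeR adjusted p = 0.601). PPARGC1B, a coactivator among 14 regulators of mitochondrial biogenesis, fell by 0.57 (SE 0.16, edgeR adjusted p = 0.0448). No assembly factor of complex I (15 tested), II (4), III (6) or V (4) passed with copper.

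**Figure D2:**
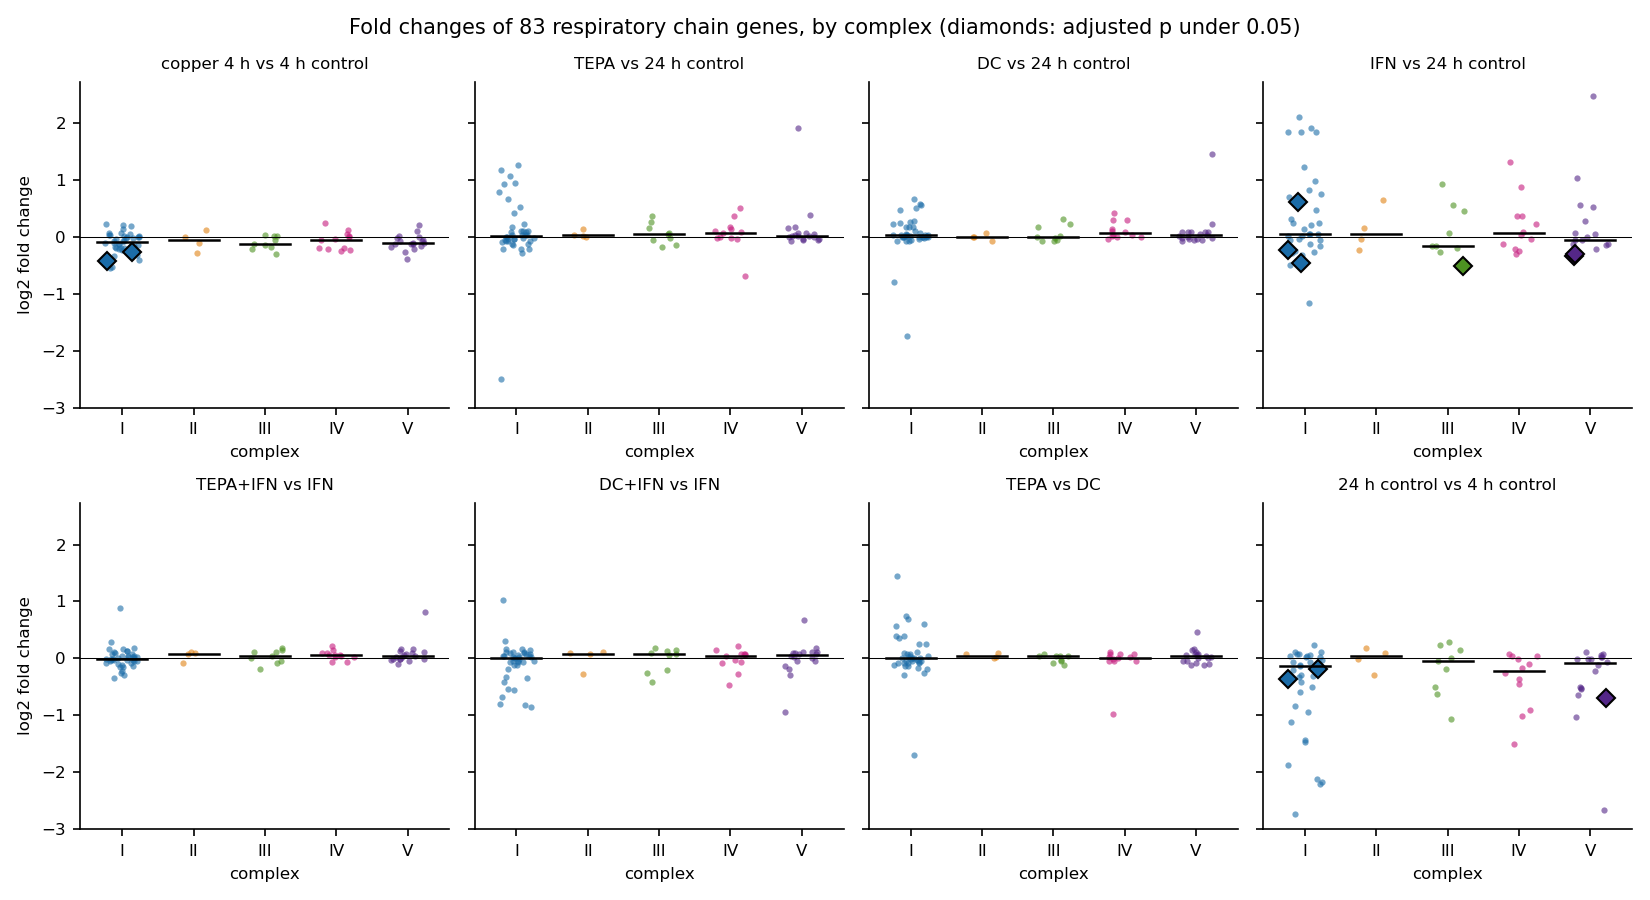
Log2 fold change of each of the 83 tested members, by complex, in 8 comparisons (points), with the median of each complex (line) and the members with an edgeR adjusted p under 0.05 as diamonds. Diamonds appear only with copper, with IFN and between the untreated cells at 24 h and 4 h; the 3 called members of the last comparison and the 2 of copper are all lower.

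Neither chelator moved a member past the test. With TEPA, 0 of 83 members were called, beside 1.06% of all genes, and 0 had an unadjusted p under 0.05, beside 1426 of all 14654 genes. With DC, 0 of 83 were called, beside 0.0136% of all genes, and 0 had an unadjusted p under 0.05, beside 135 of all genes. DESeq2 called 0 with either chelator, beside 2.55% of all genes with TEPA and 0.0205% with DC. The median log2 fold change of the members was 0.03 with TEPA (0.02 over all genes) and 0.03 with DC (-0.01 over all genes). The 95% interval lay within 0.5 of zero on the log2 scale for 52 members with TEPA and 55 with DC. For these, a larger change is outside the interval, while the others are too uncertain for that statement. SDHB, the iron-sulfur subunit of complex II, was at 65.9, 63.2 and 60.6 CPM with TEPA, 61.0, 65.5 and 62.1 CPM with DC and 64.0, 67.9 and 57.4 CPM in the 24 h control. ATP5B was at 876, 815 and 857 CPM with TEPA, 816, 802 and 828 CPM with DC and 857, 871 and 818 CPM in the 24 h control. In both genes the 3 groups overlapped.

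Same-numbered libraries also deviated together for the chelators and the 24 h control (correlations of 0.363, 0.575 and 0.232 for TEPA and 0.154, 0.55 and 0.229 for DC). Replicate 3 of each chelator correlated better with a control library of another number. With the replicate block, 1 member passed with TEPA, beside 5.85% of all genes, and with the block and GC trends removed together 9 passed (10.8%), 4 higher and 5 lower, beside 14.4% of all genes. The 1 member was ATP5D, the delta subunit of the ATP synthase stalk, at a log2 fold change of 1.85 (SE 0.49, edgeR adjusted p = 0.034). Its levels were 0.404, 0.982 and 0.435 CPM with TEPA and 0.17, 0.201 and 0.116 CPM in the 24 h control, only 4 to 37 counts per library. With DC, no fit called a member.

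TEPA and DC were also compared directly, at 24 h and at doses that the labels do not give. In the fit without the block no member passed (0 of 83, beside 1.26% of all genes), with a median of 0.01 (0.02 over all genes) and 56 intervals within 0.5 of zero. An unadjusted p under 0.05 was reached by 1 member, beside 1399 of all 14654 genes. DESeq2 called 0, beside 2.96% of all genes. The block alone also called 0 (beside 5.27% of all genes), but with GC trends removed 2 passed (2.41%, beside 9.9%), and with both steps 4 (4.82%, beside 14.5%). NDUFB10, an accessory complex I subunit, was at 20.9, 33.4 and 23.0 CPM with TEPA and 34.2, 36.2 and 25.2 CPM with DC, lower with TEPA in each pair although the groups overlapped. Its log2 fold change was -0.36 with both steps (SE 0.06, edgeR adjusted p = 0.00051) and -0.30 with neither (SE 0.23, edgeR adjusted p = 0.896). With both steps NDUFV2 was also lower (-0.18), and COX7B (0.13) and ATP5H (0.15) higher. COX15, which makes haem A for complex IV and is an assembly factor, did separate them. It was at 159, 149 and 163 CPM with TEPA, 121, 119 and 126 CPM with DC and 123, 126 and 124 CPM in the 24 h control. Its log2 fold change was 0.34 for TEPA against the 24 h control (SE 0.07, edgeR adjusted p = 0.021) and 0.36 for TEPA against DC (SE 0.07, edgeR adjusted p = 0.0101). The TEPA libraries were all above the others, and the same held with IFN present: 162, 156 and 152 CPM with TEPA and IFN, against 121, 119 and 131 CPM with IFN (0.34, SE 0.07, edgeR adjusted p = 0.0112). Of the 22 complex IV assembly factors, COX15 alone was called for TEPA against the 24 h control and none for DC. For TEPA with IFN against IFN, COX19 was called too (0.47, SE 0.12, edgeR adjusted p = 0.0421).

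IFN raised 1 member, NDUFA9, in all 3 groups that received it. NDUFA9 encodes an accessory complex I subunit that binds NADPH at the joint of the matrix and membrane arms. It was at 106, 95.6 and 95.7 CPM with IFN, 92.1, 87.1 and 89.6 CPM with TEPA and IFN, and 97.2, 92.4 and 98.0 CPM with DC and IFN. Without IFN it was at 62.7, 59.6 and 60.0 CPM with TEPA, 65.2, 63.6 and 65.6 CPM with DC and 65.5, 64.6 and 63.6 CPM in the 24 h control. No library with IFN overlapped one without it. The log2 fold change of IFN against the 24 h control was 0.62 (SE 0.06, 95% interval 0.49 to 0.75, 1.54-fold, edgeR adjusted p = 4.82e-07). It was called in all 13 alternative fits, with values of 0.56 to 0.79 and adjusted p between 1.34e-26 and 0.000319. In the copper set NDUFA9 was at 72.3, 66.6 and 65.7 CPM with copper and 74.8, 68.1 and 64.9 CPM in the 4 h control. Ordered by mean, the groups ran from IFN (99.2 CPM) over DC and IFN (95.8) and TEPA and IFN (89.6) to the 4 h control (69.3), copper (68.2), DC (64.8), the 24 h control (64.6) and TEPA (60.8). Among the groups with IFN, only TEPA with IFN lay below IFN without overlap, with a log2 fold change of -0.15 (SE 0.06), short of the threshold (edgeR adjusted p = 0.341). The effect of IFN on NDUFA9 did not differ past the test when TEPA was present (interaction -0.06, SE 0.09, edgeR adjusted p = 1) or when DC was (-0.05, SE 0.09, edgeR adjusted p = 0.918). NDUFA9 lies at chr12:4649095-4694317 on the plus strand of GRCh38, where GENCODE 29 also lists AC005832.4 and AC005833.1 on the same strand. Reads of overlapping genes may be divided among them, which was not tested.

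**Figure D3:**
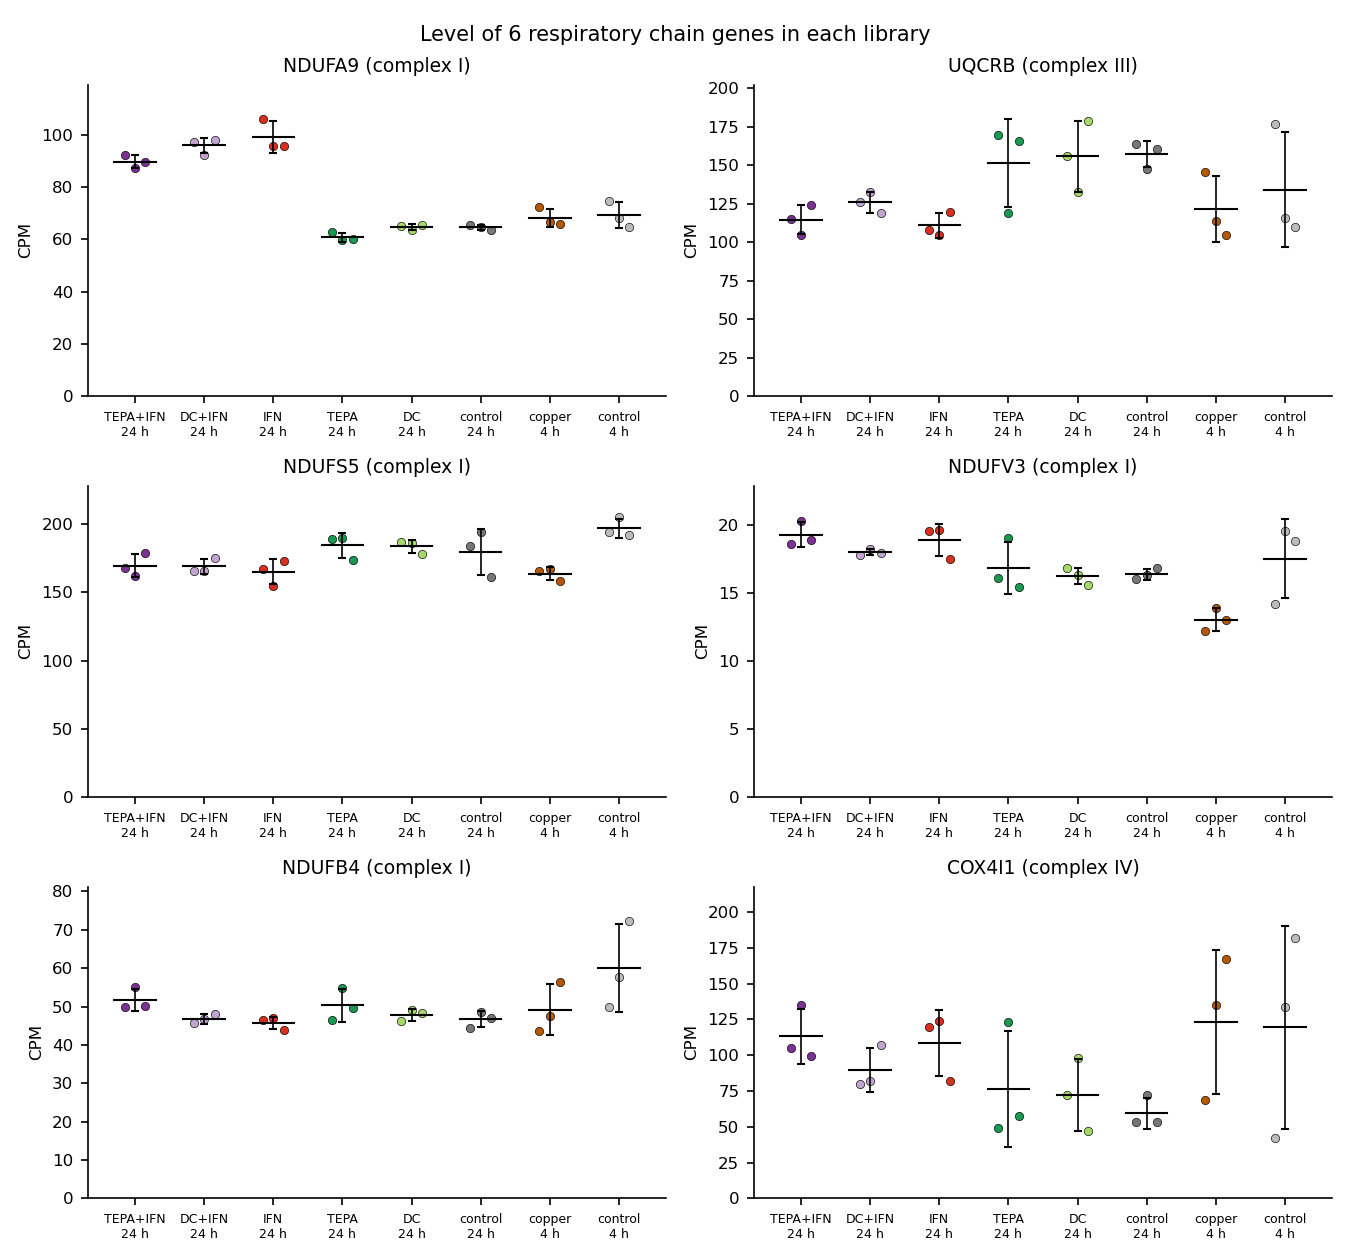
CPM of 6 members in each of the 24 libraries (points), with the mean (line) and SD (bars) of the 3 libraries of a group. NDUFA9 is at 87.1 to 106 CPM in the 9 libraries with IFN and at 59.6 to 74.8 CPM in the 15 without; COX4I1 spreads between 42.3 and 182 CPM within the 4 h control alone.

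Against 1 member higher with IFN (1.2% of 83, beside 10% of all genes), 5 were lower (6.02%, beside 8.8%), so that 6 of 83 passed (7.23%, beside 18.8%). The share of members that moved was below that of all genes in each direction in this fit. UQCRB, the ubiquinone-binding subunit of complex III, was at 108, 105 and 120 CPM with IFN, against 164, 148 and 161 CPM in the 24 h control (log2 fold change -0.51, SE 0.17, edgeR adjusted p = 0.0406). NDUFB6, an accessory subunit of the membrane arm of complex I, was at 27.4, 28.5 and 33.1 CPM with IFN, against 40.7, 41.3 and 40.4 CPM in the 24 h control (-0.46, SE 0.15, edgeR adjusted p = 0.0344). In both, the groups did not overlap. ATP5F1, the b subunit of the ATP synthase's peripheral stalk, was at 137, 126 and 156 CPM with IFN and 178, 175 and 174 CPM in the 24 h control (-0.33, SE 0.10, edgeR adjusted p = 0.0322). ATP5O, which joins that stalk to the catalytic head, was at 124, 110 and 137 CPM with IFN and 158, 151 and 151 CPM in the 24 h control (-0.31, SE 0.10, edgeR adjusted p = 0.0419). NDUFA4, a subunit of complex IV despite its symbol, was at 187, 174 and 191 CPM with IFN and 224, 213 and 211 CPM in the 24 h control (-0.23, SE 0.06, edgeR adjusted p = 0.0127). Again no IFN library reached the control libraries in these 3 genes.

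These 5 calls were less firm than that of NDUFA9. NDUFB6 lost its call in 5 of the 6 fits without 1 library, UQCRB in 4, ATP5O in 3, ATP5F1 in 2 and NDUFA4 in 0. Without replicate 1 or 2 of IFN, 2 members were called (11.6% and 11.5% of all genes), and without replicate 1 of the 24 h control, 3 (12.3% of all genes). Without replicate 3 of IFN, 18 were called (21.7%), beside 24.6% of all genes. With GC trends removed, UQCRB (-0.25), NDUFB6 (-0.23), ATP5O (-0.17) and ATP5F1 (-0.14) remained lower and called, but NDUFA4 came to 0.01 with no call. In that fit 7 members were higher (8.43%, beside 17.3% of all genes) and 9 lower (10.8%, beside 15.2%). Among the higher were both catalytic subunits of complex II. SDHA, its flavoprotein, was at 57.9, 60.3 and 45.6 CPM with IFN, against 30.8, 42.1 and 32.0 CPM in the 24 h control (0.64, SE 0.24, edgeR adjusted p = 0.0662 without GC removal; 0.40, SE 0.13, 0.0223 with it). SDHB was at 69.9, 70.0 and 70.4 CPM with IFN, against 64.0, 67.9 and 57.4 CPM in the 24 h control (0.15, SE 0.06, edgeR adjusted p = 0.0946 without GC removal; 0.31, SE 0.10, 0.0186 with it). In both genes the IFN libraries lay above the control libraries. Of the 2 leukocyte markers tested, CD68 rose with IFN by 3.34 on the log2 scale, and PTPRC had a log2 fold change of -1.18 that was not called (edgeR adjusted p = 0.135). The fibroblast markers PDGFRB and COL1A2 changed by 1.15 and -0.82, and the summed leukocyte list ran from 0.577 to 10.7 CPM over all libraries with CD3E at 0. Their part in the members' differences was not tested. In bulk RNA, fewer cells of a type and less RNA per cell cannot be told apart.

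Outside the symbol rule, ATPIF1, the inhibitor protein that blocks the ATP synthase when it runs in reverse, also fell with IFN. It was at 28.1, 28.1 and 30.4 CPM with IFN, 26.7, 26.6 and 30.9 CPM with TEPA and IFN and 27.9, 29.6 and 30.7 CPM with DC and IFN, against 37.1, 38.2 and 37.7 CPM in the 24 h control. The IFN log2 fold change was -0.39 (SE 0.08, edgeR adjusted p = 0.00211), and all 13 alternative fits called it. The counts of list genes called with IFN that follow stand beside 18.8% of all genes, and nothing particular to a list is read from them. Of 14 regulators of mitochondrial biogenesis, 1 rose and 2 fell. PPARGC1A, a coactivator of this programme, rose with IFN by 1.23 on the log2 scale (SE 0.36, edgeR adjusted p = 0.0232) but stood at only 0.665, 0.97 and 1.37 CPM, against 0.407, 0.369 and 0.492 CPM in the 24 h control. GABPA, a subunit of a factor that binds many respiratory chain promoters, fell by 0.61 and TFB1M, a methyltransferase for mitochondrial ribosomal RNA, fell by 0.36. Of 22 complex IV assembly factors, COX14 rose by 0.50 and COX16 and COX20 fell by 0.29 and 0.44. Of 15 complex I assembly factors, TIMMDC1 and TMEM186 rose by 0.25 and 0.45. Of 4 for complex II, SDHAF2 rose by 0.29 and SDHAF3 fell by 0.49, and of 4 for complex V none passed. Of 14 genes for electron carriers, which make ubiquinone or pass electrons to it, ETFDH and COQ7 fell by 0.48 and 0.25 and none rose. Of 6 complex III assembly factors, 1 passed: LYRM7, an assembly factor for the Rieske protein of complex III, fell by 0.66 (SE 0.14, edgeR adjusted p = 0.00256).

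With IFN as the background, neither chelator changed a member past the test. TEPA with IFN against IFN gave 0 of 83, beside 1.9% of all genes. An unadjusted p under 0.05 was reached by 5 members, beside 1711 of all 14654 genes. DESeq2 called 1, NDUFA4 (1.2%, beside 3.98% of all genes). DC with IFN against IFN gave 0 of 83, beside 0.0205% of all genes. An unadjusted p under 0.05 was reached by 0 members, beside 336 of all genes, and DESeq2 called 0, beside 0.0409%. The medians were 0.03 (-0.02 over all genes) and 0.04 (-0.01 over all genes), and 54 intervals lay within 0.5 of zero in each. NDUFA4 was at 210, 210 and 208 CPM with TEPA and IFN, and at 201, 202 and 194 CPM with DC and IFN, against 187, 174 and 191 CPM with IFN. Both combinations lay above IFN without overlap, at log2 fold changes of 0.18 (SE 0.06, edgeR adjusted p = 0.161) and 0.11 (SE 0.06, edgeR adjusted p = 0.95). These comparisons share the IFN libraries. With GC trends removed, 3 members (3.61%, beside 12.8% of all genes) passed for TEPA with IFN: NDUFB6 (0.29) and ATP5F1 (0.17) higher and UQCRC2 (-0.18), a core protein of complex III, lower. The interaction terms, for a chelator effect that depends on IFN, called 0 of 83 members for TEPA and 0 for DC, beside 0% of all 14654 genes in each. An unadjusted p under 0.05 was reached by 0 and 1 members, beside 205 and 142 of all genes. DESeq2 called 0 members in each, beside 0% and 0.0136% of all genes.

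The untreated cells at 24 h and at 4 h differ in time, and the labels do not say whether both sets were cultured together. In the 24 h control 3 members were lower (3.61%, beside 3.79% of all genes called lower and 9.69% in either direction) and none was higher. ATP5S, which is now named DMAC2L and is not an ATP synthase subunit, was at 5.57, 5.17 and 6.25 CPM in the 24 h control, against 9.65, 8.08 and 9.68 CPM in the 4 h control (log2 fold change -0.69, SE 0.16, edgeR adjusted p = 0.0101). All 24 h libraries of any treatment had 6.73 CPM or less of it, while copper libraries had 9.01 to 9.68 CPM. NDUFB4, a complex I subunit of the membrane arm, was at 44.5, 48.6 and 46.9 CPM in the 24 h control and 49.8, 57.8 and 72.4 CPM in the 4 h control (-0.36, SE 0.11, edgeR adjusted p = 0.0443). NDUFA10, an accessory subunit near the membrane arm, was at 55.4, 56.6 and 56.8 CPM in the 24 h control and 60.9, 66.6 and 63.2 CPM in the 4 h control (-0.18, SE 0.05, edgeR adjusted p = 0.0471). ATP5S kept its call without any 1 of the 6 libraries, while NDUFB4 and NDUFA10 lost theirs in 5 of the 6 fits. With GC trends removed 16 members (19.3%) were lower, beside 13.6% of all genes. Without replicate 1 of the 4 h control, 47 members were called (56.6%, beside 49.8% of all genes), 5 higher and 42 lower. Without replicates 1 or 3 of the 24 h control or 2 or 3 of the 4 h control, 1 was called (1.2%, beside 3.76% to 4.34%).

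Replicate 1 of both 4 h groups stood apart in how its counts ran with the GC content of genes. A measure of this is the median log2 ratio to the mean of all libraries in genes above 60% GC, less the same median in genes below 40%. It was -0.65, 0.764 and 1.3 with copper and -1.31, 0.646 and 1.33 in the 4 h control. It was 0.578, 0.88 and -0.12 with IFN, -0.992, 0.617 and -0.744 with TEPA and -0.461, 0.187 and -1 with DC, against -0.949, -0.351 and -0.769 in the 24 h control. The spread of members between libraries of 1 group was widest, as a median, in those above 60% GC, which also had the lowest median level (3.57 CPM). The within-group SD of log2 CPM had a median of 0.674 in the 8 members above 60% GC, 0.158 in the 56 from 45% to 60% and 0.169 in the 19 below 45%. NDUFA13, at 62.0% GC, was at 2.91, 19.0 and 43.3 CPM within the 4 h control, and COX4I1, at 53.9% GC, at 42.3, 134 and 182 CPM.

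The size of the IFN and of the time difference ran with GC content. Across the 83 members, the log2 fold change with IFN had a Pearson correlation with transcript GC content of 0.70, which fell to 0.24 with GC trends removed. The members above 60% GC had a median of 1.85, against -0.23 below 45%. With GC trends removed these medians were 0.93 and -0.00. Between the 24 h and the 4 h control the correlation was -0.80 (-0.47 with GC trends removed). The medians were -2.03 above 60% and 0.04 below 45%, and -0.97 and -0.11 with GC trends removed. For copper the Pearson correlation was 0.29, for TEPA 0.38 and for DC 0.30. By rank (Spearman) these were 0.39, 0.43 and 0.67, beside 0.68 for IFN and -0.83 for time. For DC with IFN against IFN the Pearson value was -0.52 (-0.61 by rank), and for TEPA with IFN 0.07 (-0.13). TEPA against DC had 0.26 (0.27 by rank). The interactions had -0.32 (-0.53 by rank) for TEPA and -0.44 (-0.66) for DC. The members share libraries, and these correlations describe them without a test. ATP5D, at 68.7% GC the richest member, was at 0.7, 1.55 and 0.508 CPM with IFN, against 0.17, 0.201 and 0.116 CPM in the 24 h control, and did not pass (edgeR adjusted p = 0.0634). NDUFA9, at 45.5% GC, stood apart from these trends: its log2 fold change with IFN was 0.62, beside a median of 0.07 for the members from 45% to 60%, and 0.79 with GC trends removed.

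**Figure D4:**
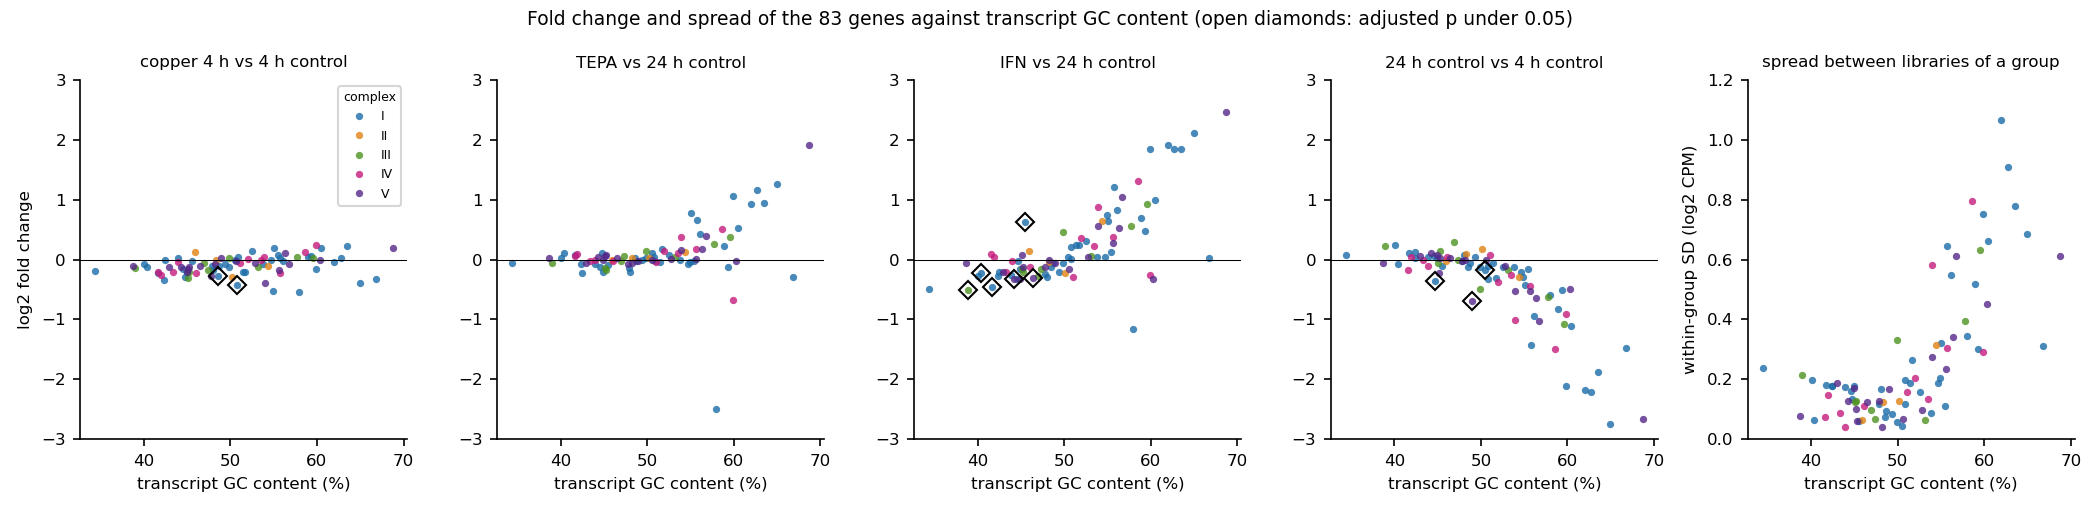
Log2 fold change of the 83 members against the GC content of their transcripts in 4 comparisons, coloured by complex, with members at an edgeR adjusted p under 0.05 ringed by an open diamond, and, at the right, the SD of log2 CPM between libraries of a group. With IFN the members rise along GC content and NDUFA9 stands alone above the others near 45%; between 24 h and 4 h they fall along it; the spread is widest above 60%.

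Promoters were read from RefSeq (GRCh38.p14), in windows from 250 bases before to 50 bases after the start, which 73 of the 93 members matched. The motif of nuclear respiratory factor NRF1 and those of 4 other factors were searched on both strands. The NRF1 motif stood in 16 of the 73 (21.9%), beside 6.28% of 27305 promoters, and NDUFA9, ATP5O and NDUFB4 were among them. The YY1 motif stood in 8 (11%), beside 1.28%, and CCGGAAGT of ETS factors in 9 (12.3%), beside 4.44%. Of motifs linked to interferon, the interferon-stimulated response element stood in 0 of 73, beside 3.65%, and TTCNNNGAA of the gamma-activated site in 5 (6.85%), beside 7.88%. Neither stood in the window of NDUFA9, which says only that these letters are not in it. The bases before the start are shown for NDUFA9, which rose with IFN, for NDUFB4, lower at 24 h, and for SDHA, whose call depended on the fit. They lie on the plus strand at chr12:4648864-4649094, chr3:120596086-120596308 and chr5:218070-218240, are written 5′ to 3′, end before the earlier of the RefSeq and GENCODE starts, and have each NRF1 motif match, on either strand, in capitals.
NDUFA9: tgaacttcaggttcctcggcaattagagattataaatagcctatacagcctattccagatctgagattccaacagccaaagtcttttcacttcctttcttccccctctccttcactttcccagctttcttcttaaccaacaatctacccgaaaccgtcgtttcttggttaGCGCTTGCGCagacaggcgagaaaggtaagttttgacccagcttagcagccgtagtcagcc
NDUFB4: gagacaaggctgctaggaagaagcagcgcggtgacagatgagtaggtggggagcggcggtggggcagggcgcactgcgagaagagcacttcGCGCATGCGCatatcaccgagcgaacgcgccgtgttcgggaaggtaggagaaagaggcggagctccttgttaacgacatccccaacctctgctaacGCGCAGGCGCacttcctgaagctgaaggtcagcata
SDHA: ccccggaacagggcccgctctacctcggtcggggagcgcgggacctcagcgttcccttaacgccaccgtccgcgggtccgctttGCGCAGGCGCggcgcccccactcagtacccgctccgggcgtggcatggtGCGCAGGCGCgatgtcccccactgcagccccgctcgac
NDUFA9 has 1 match and NDUFB4 and SDHA have 2 each.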

How the data were processed

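RNA of 24 libraries was measured. The authors deposited whole-number read counts per gene symbol, without normalization, as 1 table and 24 lists with equal values. Per the submitters' processing notes, STAR (2.5a), RSEM (1.2.31) and build hg38 were used; the annotation, strand setting and filters are not given in the sources used here.

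Computed here with R 4.3.3: genes were filtered with filterByExpr of edgeR 4.0.16 (minimum count 10, 14654 genes left) and scaled with TMM factors. A quasi-likelihood model with 1 mean per group was fitted to all 24 libraries (16 residual degrees of freedom, biological coefficient of variation 0.207), with calls at an adjusted p under 0.05 (Benjamini-Hochberg, over all genes). CPM are counts per 1000000 of the scaled total. Groups come from the sample titles. Symbols were placed with GENCODE 29 (24593 matched, 92.9%; all 93 members), and GC content is the median over a gene's protein-coding transcripts, known for 96.9% of the genes tested. GC trends were removed as an offset from a smooth curve (span 0.3) of each library's log ratio against GC content.

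A replicate block was fitted as an alternative, and all 3 same-numbered pairs correlated above 0.1 for copper, TEPA and DC against their controls and for TEPA against DC (0.121, 0.755 and 0.522), from the data and not the labels. The same number was not the best match for replicate 2 of copper, replicate 3 of TEPA and of DC against the control, or replicate 1 of TEPA against DC. Other alternatives were DESeq2 1.42.0, RLE factors, no filter, only the libraries compared and leaving out each library. The script was tested on simulated data. Intervals are 95% and come from the fit. The values after ± are the SD between the 3 libraries of a group. Named were up to 8 called members a direction, core subunits, tissue alternatives and ATPIF1, and up to 4 called genes of each list. Of the other lists only those that the text names are given. The members and lists were chosen with earlier results of these data known.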

Additional observations from a re-analysis of the deposited data

How the results depend on the processing

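The counts of members called depended on the fit for copper (2 called), IFN (6) and time (3). Removing the filter on low counts left 0 for copper (beside 3.35% of all genes) and 1 for time (1.1%, beside 5.12%). Fitting only the libraries compared left 0 for copper (beside 0.438% of all genes) and for time (beside 0.00725%) and gave 39 for IFN (48.8%, beside 47.8%). DESeq2 called 13 for IFN (15.7%, beside 24.8%), 1 for TEPA with IFN against IFN (1.2%, beside 3.98%) and 15 for time (18.1%, beside 17.1%). With GC trends removed the counts were 12 for copper (14.5%, beside 20.9% of all genes), 3 for TEPA (3.61%, beside 8.69%) and 16 for IFN (19.3%, beside 32.5%). They were 3 for TEPA with IFN (3.61%, beside 12.8%), 2 for TEPA against DC (2.41%, beside 9.9%) and 16 for time (19.3%, beside 25.8%). With the replicate block they were 14 for copper (16.9%, beside 15.6% of all genes), 1 for TEPA (1.2%, beside 5.85%) and 2 for TEPA with IFN (2.41%, beside 7.23%). The block gave 6 for time (7.23%, beside 15.4%) and 55 for IFN (66.3%, beside 56%, so the members' share was then the higher). With the block and GC trends removed the counts were 16 for copper (19.3%, beside 26.7% of all genes), 9 for TEPA (10.8%, beside 14.4%) and 39 for IFN (47%, beside 45.2%). They were 11 for TEPA with IFN (13.3%, beside 18.7%), 4 for TEPA against DC (4.82%, beside 14.5%) and 23 for time (27.7%, beside 29.6%). For IFN, TEPA with IFN, the interactions and time, the numbers did not pair the libraries by the rule used, so there the block is only an arithmetic alternative. Without 1 library the counts ran from 0 to 9 for copper, 2 to 18 for IFN, 0 to 1 for TEPA with IFN and 1 to 47 for time. The shares of all genes in these fits ran from 4.46% to 7.62%, 11.5% to 24.6%, 0.838% to 1.7% and 3.76% to 49.8%, in the same order. DC, DC with IFN and both interactions had 0 in every fit, beside at most 0.171% of all genes. The cause of these shifts was not tested.

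NDUFA4 with IFN reversed to 0.01 with GC trends removed and to 0.01 with the block as well. The uncalled NDUFA9 difference of DC with IFN against IFN reversed to 0.01 without replicate 1 of IFN and ran down to -0.07 without another library. The uncalled COX4I1 difference with copper reversed to -0.37 without replicate 1 of the 4 h control, -0.03 without replicate 2 of copper and -0.26 without replicate 3 of copper, and reached 0.48 without replicate 3 of the control. Of 710 medians per complex under the alternatives, 8 moved by more than the median SE, at most by 0.15. ATP5D, NDUFB7 and NDUFS7 averaged under 1 CPM, where depth limits what can be detected. These 3 genes are also rich in GC, at 68.7%, 65.0% and 66.8%. The 8 members above 60% GC had a median level of 3.57 CPM. It was 52.5 CPM in the 56 members from 45% to 60% and 104 CPM in the 19 below 45%. Whether the low levels follow from GC content or from low expression was not tested.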
